A study of Mus musculus with 62 samples.

Results

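The nuclear genes of mitochondrial ribosomal proteins were followed through RNA-seq and ribosome profiling (Ribo-seq) of mouse heart and of C2C12 myoblasts. Members were taken by name: gene symbols that begin with Mrpl (large subunit) or Mrps (small subunit) followed by a digit, each represented by the transcript with the highest mean count. By this rule 47 genes of the 10476 gene names in the table of counts were members, 29 with an Mrpl and 18 with an Mrps name, out of 105 transcripts of these genes among 23877 in all. GENCODE M21 holds 78 protein-coding genes with such names. The 47 members are those on the plus strand, and the other 31 lie on the opposite strand and are not analysed here. All 47 passed the filter on low counts, a mean of at least 10 in each assay, in every comparison.

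Hearts came from male C57BL/6J mice at 10 weeks of age, either wild type (Rpl3l+/+, WT) or homozygous for a deletion of exon 2 of Rpl3l made with CRISPR-Cas9 (Rpl3l-/-, KO), with 4 hearts per genotype in each assay. The deletion was in the germ line and was thus present in every cell of the animal. C2C12 cells, a line of mouse myoblasts, had been infected with a pCX4/puro retrovirus that carried RPL3L (RPL3L OE), RPL3 (RPL3 OE) or no insert (control) and selected with puromycin, with 3 cultures per group in each assay. Whether a group was 1 clone or a pool of infected cells is not given in the sources used here. RPL3L is the form of the cytosolic ribosomal protein RPL3 that is made in heart and skeletal muscle, and the study compared hearts without it, and myoblasts with it added, with their controls.

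The mitochondrial ribosome translates the few mRNAs of the mitochondrial genome, all of which encode subunits of the respiratory chain and ATP synthase. Its rRNAs come from mitochondrial DNA, whereas all of its proteins are encoded in the nucleus, translated by cytosolic ribosomes and imported, so that a ribosome such as the one that holds RPL3 or RPL3L makes the parts of another. Most of its proteins descend from bacterial ribosomal proteins and others are found only in mitochondria, and heart muscle, with its dense mitochondria, is a tissue in which inherited defects of these proteins show.

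Promoters of members were read beside the comparison of heart and myoblasts below, in which most members had higher mRNA in heart. RefSeq start sites (GRCm38.p6, 250 bases before to 50 after the start) were at hand for 44 of the 47 members, in 46 windows, and not for Mrpl4, Mrps34 and Mrps35. Searched on both strands were letters of motifs bound by factors known for nuclear genes of mitochondria: GCGCA and GCGC with any 1 base between them for NRF1, CCGGAAG for ETS factors such as GABPA, AAGATGG for YY1 and CACGTG for the E-box of MYC and related factors. The motifs do not contain one another. One window of 30 bases is shown for 8 members named in the results, in the direction of the gene, with the letters matched in capitals.
Mrpl30 (NRF1, reverse strand, chr1:37890384-37890413, strand +): tgacgccgctGCGCCTGCGCtgtcttctat
Mrpl12 (NRF1, reverse strand, chr11:120484546-120484575, strand +): tattgtctccGCGCCTGCGCgtcgcaccgc
Mrpl44 (NRF1, chr1:79775973-79776002, strand +): agaagcacttGCGCACGCGCagtacactag
Mrps26 (NRF1, chr2:130563745-130563774, strand +): tccgggccggGCGCAGGCGCaggcgctggc
Mrpl3 (ETS, chr9:105053237-105053266, strand +): ttgagaaacggaCCGGAAGtggcccggctg
Mrpl51 (ETS, chr6:125192098-125192127, strand +): ccaggggctaaaCCGGAAGtatttgactgg
Mrps27 (YY1, chr13:99344788-99344817, strand +): ttggtgcgctccAAGATGGcggctcccatg
Mrpl36 (E-box, chr13:73330954-73330983, strand +): cacacgtcatccCACGTGaccttacgccat

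The NRF1 letters were found in 9 of the 46 members' windows (19.6%), against 9.26% of 6392 windows of genes with a mean count of at least 10 and 4.60% of all 32851 windows. ETS letters were found in 16 (34.8%), against 16.8% of the windows of counted genes and 8.86% of all, and YY1 letters in 6 (13.0%), against 6.84% and 6.34%. The E-box was found in 6 windows (13.0%), of which 3 belong to the start sites of Mrpl2, against 9.76% and 7.15%. At least 1 of the NRF1, ETS and YY1 motifs stood in 26 of the members' windows (56.5%), against 29.1% of the windows of counted genes and 17.95% of all. In 44 windows of cytosolic ribosomal protein genes the shares were 11.4% for NRF1, 29.5% for ETS, 13.6% for YY1 and 9.09% for the E-box. In 21 windows of nuclear genes of the respiratory chain each of the 4 motifs was found in 9.52%. The ETS and YY1 shares of members were thus close to those of cytosolic ribosomal protein genes. All these shares describe letters in a window. Of the members with the largest differences below, Mrpl55, Mrpl24, Mrps6 and Mrps10 held none of the motifs.

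Total counts per library ranged from 3594696 to 29746110 in RNA-seq and from 1606700 to 6093268 in Ribo-seq, and differed between the groups compared. Median RNA-seq totals were 4789635.5 in WT and 15397962 in KO hearts, and 15742861 in control, 8542738 in RPL3 OE and 8725989 in RPL3L OE cells. Median Ribo-seq totals were 2400444.5 and 1802789.5 in these hearts, and 3228059, 4559826 and 5402222 in these cells. Single members had from 39 counts (Mrpl57 in Ribo-seq of KO heart 1) to 7199 counts (Mrpl51 in RNA-seq of KO heart 3). Rpl3l mRNA was at 401 to 516 CPM (counts scaled to a common library total) in WT and 24.4 to 37.0 CPM in KO hearts, and at 1996 to 2053 CPM in RPL3L OE against 0.168 to 0.572 CPM in control C2C12 cells. The numbers of KO hearts 2 and 3 disagreed between the assays: the airway markers Scgb3a1, Scgb3a2 and Bpifa1 summed to 0.519 CPM in heart 2 and 1321 CPM in heart 3 by RNA-seq, but to 2308 CPM in heart 2 and 0 CPM in heart 3 by Ribo-seq, and fat markers differed in the same way. The main test of TE, which sets the assays against each other, compares groups and does not pair libraries by number. An exchange of numbers within the KO group would thus not alter it, whereas the alternative with a replicate block does pair them. TE is given also without both hearts, which leaves fewer KO libraries. Of 12 markers of cardiomyocytes, 6 were in the table. They summed to between 40737 and 48850 CPM in RNA-seq of hearts and to between 227 and 299 CPM in C2C12 cells, in which Pln and Nppa were at 0. Of 7 markers of myoblasts, 5 were in the table. These summed to between 1859 and 2216 CPM in RNA-seq of hearts and to between 4725 and 5324 CPM in C2C12 cells. Myod1, Cdh15 and Myog were at 0 in RNA-seq of hearts, so that the heart sum comes from the remaining myoblast markers.

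Mitochondrial ribosomal protein mRNAs were abundant in both heart and myoblasts, and their levels spread over more than an order of magnitude. Levels were compared between genes as TPM (summed over the table's transcripts to a common total), computed from the counts per base of transcript in RNA-seq and per base of coding sequence in Ribo-seq. In WT heart the median member had 77.2 TPM (range, 10.4 to 340), against 8.502 TPM for the median of 5272 genes compared, and all 47 members lay above that median gene. In control C2C12 cells the median member had 70.6 TPM (range, 12.9 to 336), against 16.5 TPM for the median of 5299 genes, and 45 members lay above it. As plain CPM, in which long transcripts weigh more, 45 and 38 members lay above the median gene. Summed over the members, the level was 4641 TPM of RNA-seq in WT heart and 4068 TPM in control C2C12 cells, and 6360 and 5658 TPM of Ribo-seq.

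**Figure D1:**
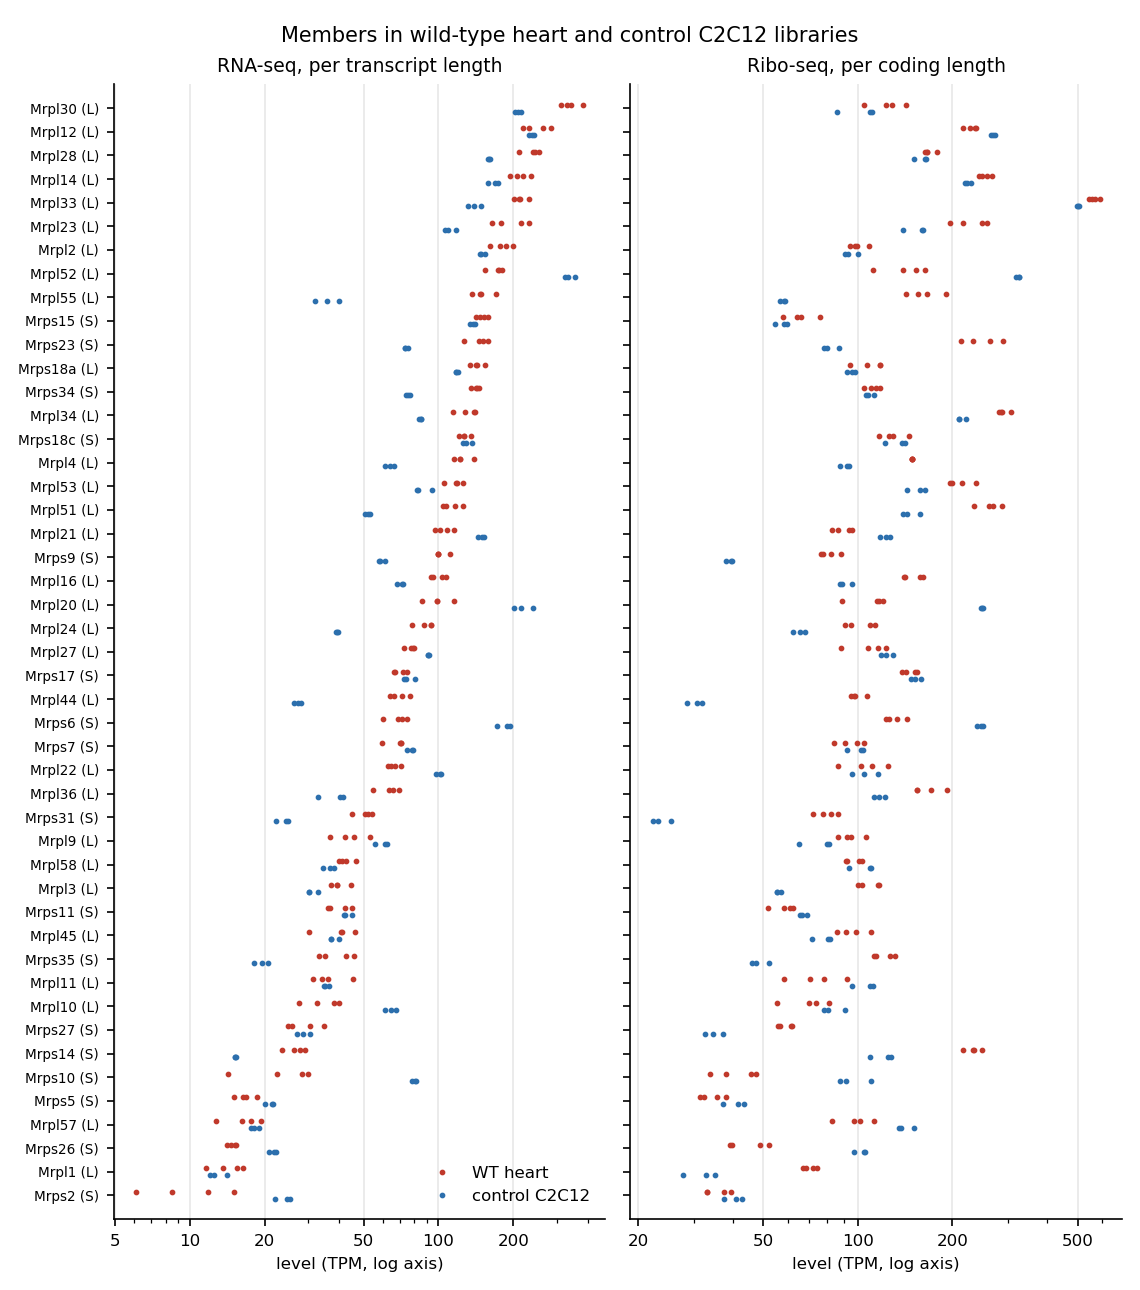
Levels of the 47 members in RNA-seq (per base of transcript) and Ribo-seq (per base of coding sequence) of WT heart and control C2C12 cells, in TPM on log axes of different range, with a point per library (red, heart, n = 4; blue, C2C12, n = 3) and members ordered by their mean mRNA level in heart (L, large subunit; S, small subunit). Levels spread more widely along the RNA-seq axis (SD of log2 levels, 1.24 in heart and 1.18 in C2C12) than along the Ribo-seq axis (0.82 and 0.94).

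The order of the levels was led by large-subunit proteins in both. In WT heart the highest was Mrpl30, the counterpart of bacterial L30, with 329, 340, 312 and 380 TPM in the 4 libraries. Mrpl12 (249 ± 29.6 TPM, SD, n = 4), the protein of the stalk that recruits translation factors, and Mrpl28 (237 ± 18.7) followed, and their ranges overlapped each other and that of Mrpl14 (214 ± 17.98), whereas the range of Mrpl30 lay above them all. The lowest member was Mrps2, with 8.51, 6.08, 15.1 and 11.8 TPM. Its range overlapped that of Mrpl1 (14.3 ± 2.13), the protein of the L1 stalk. The ranges of Mrps26, Mrpl57 and Mrps5 (means, 14.9 to 16.7 TPM) also overlapped that of Mrpl1.

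In control C2C12 cells the highest member was Mrpl52, a protein found only in mitochondria, with 336 ± 16.4 TPM (SD, n = 3). Mrpl12 (237 ± 5.12), Mrpl20 (218 ± 19.3), Mrpl30 (209 ± 6.404) and Mrps6 (185 ± 11.3) followed. The range of Mrpl20 overlapped those of Mrpl12 and Mrpl30. At the other end were Mrpl1 (12.9 ± 1.13), Mrps14 (15.3 ± 0.122), Mrpl57 (18.3 ± 0.684), Mrps35 (19.4 ± 1.23) and Mrps5 (20.99 ± 0.777).

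Footprints on the members' mRNAs were more even than the mRNAs themselves. Over the 47 members, the SD of log2 levels was 1.24 in RNA-seq and 0.82 in Ribo-seq of WT heart, 1.22 and 0.82 in KO heart, 1.18 and 0.94 in control, 1.18 and 0.93 in RPL3 OE and 1.15 and 0.90 in RPL3L OE cells. The same held as CPM without length (0.89 and 0.63 in WT heart, 0.76 and 0.58 in control cells). Over all genes compared, the SD was 2.33 and 2.09 in WT heart but 2.20 and 2.25 in control cells, and over 42 cytosolic ribosomal protein genes in WT heart it was 0.59 in RNA-seq and 1.32 in Ribo-seq. These are descriptions over genes of a complex, with no test.

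Translation efficiency (TE), footprints per mRNA relative to the median gene on a log2 scale, was accordingly lower on the more abundant members. Across the 47 members, Pearson's r of log2 RNA-seq level and TE was -0.75 in WT heart (-0.48 over all genes compared) and -0.62 in control C2C12 cells (-0.30 over all genes). The RNA-seq level enters both axes, which alone gives a negative value. In WT heart, TE was lowest for Mrpl30 at -2.33 (SE, 0.11), Mrps15 at -2.06 (0.08) and Mrpl2 at -1.74 (0.08), and the same 3 members were lowest in control cells, in the order Mrps15 at -1.43, Mrpl30 at -1.21 and Mrpl2 at -0.84. For Mrpl30, the 329 to 380 TPM of mRNA in heart were set against 142, 123, 104 and 128 TPM of footprints. TE was highest for Mrps14 in both (2.24 in heart and 2.81 in C2C12). This and the high TE of Mrpl57 (1.72 and 2.78) and of Mrps26 in control cells (2.08) rest on long annotated transcripts of 2999, 2877 and 4278 bases, and as a ratio of CPM the TE of Mrps14 and Mrpl57 in heart was 0.19 and -0.60.

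Members' mRNAs were higher in heart than in myoblasts, and their TE was lower. Of the 47 members, 41 had higher mRNA in WT heart than in control C2C12 cells and 2 lower at an adjusted p under 0.05 (quasi-likelihood test of edgeR, Benjamini-Hochberg adjusted over 15835 transcripts). Of all transcripts 80.7% passed in either direction, 39.7% as higher and 41% as lower. The members' median log2 fold change was 1.24 (range, -0.74 to 3.09), against -0.08 for all transcripts. Of the members 34 had lower TE and 0 higher, while 47.9% of all transcripts passed in either direction and 25.2% as lower. The median TE difference was -0.73 (range, -1.61 to 0.27), against -0.04 for all transcripts. In 32 members both held, 9 were higher in mRNA without a called TE difference, Mrpl52 and Mrpl20 were lower in TE without one in mRNA, and Mrps2, Mrpl10, Mrps6 and Mrps10 had neither higher mRNA nor lower TE. The sum of the mRNA and the TE difference had a median of 0.45 and was above 0 in 39 members.

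These splits move with the scaling between a tissue and a cell line. With library totals in place of TMM (the trimmed mean of M-values, which centres most transcripts near no change), the median of all transcripts shifted to -0.84 for mRNA and 0.32 for TE, and 29 members were higher and 9 lower in mRNA and 4 higher and 25 lower in TE. Relative to the median of all transcripts, the members' median stood at 1.32 with TMM and 1.31 with library totals for mRNA, and at -0.69 and -0.68 for TE. In the KO hearts and the RPL3 OE cells, libraries that the comparison of WT heart and control cells does not use, 42 members were higher and 1 lower in mRNA (median, 1.37, against 0.13 for all transcripts) and 40 were lower in TE (median, -0.85, against -0.17). The share of all transcripts that passed was not counted with library totals or in these other libraries, so that these counts of members stand without it. Tissue, growth in culture and the separate experiments cannot be told apart here, and in bulk samples fewer cells of a type cannot be told apart from less RNA per cell.

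**Figure D2:**
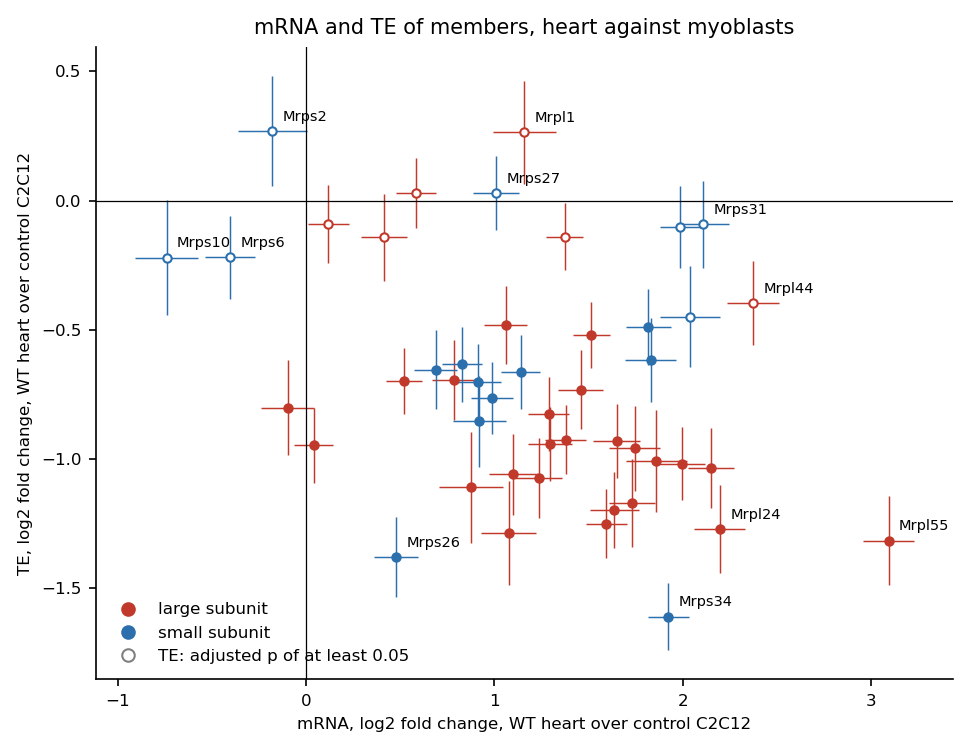
Log2 fold change of mRNA (horizontal) and of TE (vertical) of the 47 members between WT heart (n = 4) and control C2C12 cells (n = 3), with bars of 1 SE, large-subunit members in red and small-subunit members in blue, and open points for TE differences with an adjusted p of at least 0.05. Most points lie to the right of 0 and below 0, with Mrpl55 farthest right at 3.09 and Mrps34 lowest at -1.61.

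The largest difference in mRNA was that of Mrpl55, the counterpart of bacterial L31 (chr11:59202538-59205888, GRCm38, strand +). Its normalised CPM, scaled by TMM over both kinds of sample, was 106, 103, 90.1 and 121 in WT hearts and 13.5, 11.1 and 12.5 in control cultures, so that the groups were far apart. The fold change was 8.53 (log2, 3.09; SE, 0.13; adjusted p = 7.35e-11, edgeR). Its footprints differed less, with 98.0, 74.9, 84.2 and 89.6 CPM in hearts and 23.98, 26.3 and 25.2 CPM in myoblasts, and its TE was lower in heart by a log2 value of -1.32.

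Mrpl44, a large-subunit protein with a fold like that of RNase III, whose loss in people causes cardiomyopathy, came next (93.7, 113, 75.7 and 98.7 CPM of mRNA in hearts, and 18.1, 19.0 and 18.1 CPM in myoblasts). Its log2 fold change was 2.37 (SE, 0.14), and its TE difference of -0.40 (SE, 0.16) did not pass (adjusted p = 0.0508 by edgeR). Mrpl24, the counterpart of bacterial L24, had a log2 fold change of 2.20 (SE, 0.14). Its exons share 594 bases with Rrnad1 on the other strand, and those of Mrpl44 share 126 bases with Wdfy1, whose reads cannot be told apart from theirs since the strand setting of the counting is not given. In all, 19 members share exon bases with another gene, 15 of them on the other strand and 5 on their own.

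Of the members with lower mRNA in heart, Mrps10, the counterpart of bacterial S10, had 14.4, 29.8, 25.5 and 22.2 CPM in hearts and 38.2, 39.5 and 38.4 CPM in myoblasts (log2 fold change, -0.74; SE, 0.17). Mrps6, the counterpart of bacterial S6, had 58.0, 65.2, 42.2 and 58.8 CPM in hearts and 76.0, 69.2 and 76.6 CPM in myoblasts (-0.40; SE, 0.13). Neither pair of groups overlapped. The direction of Mrps6 was not kept in KO hearts and RPL3 OE cells (0.05). Its exons share 305 bases with Gm49711 and 159 bases with the protein-coding gene Slc5a3, both on its own strand.

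Mrps34, a small-subunit protein found only in mitochondria (chr17:24895116-24896289, GRCm38, strand +), had the lowest TE in heart relative to myoblasts. Its mRNA was at 124, 139, 109.7 and 127 CPM in hearts and 32.1, 32.3 and 34.0 CPM in myoblasts, whereas its footprints were at 98.7, 94.7, 91.9 and 99.9 CPM in hearts and 74.2, 77.4 and 79.3 CPM in myoblasts. A 3.79-fold difference in mRNA thus stood beside a much smaller one in footprints, and the TE difference was -1.61 (SE, 0.13; adjusted p = 1.05e-08, edgeR). For Mrps26, also found only in mitochondria, footprints went the other way from mRNA: mRNA was at 50.6 to 67.3 CPM in hearts and 42.8 to 44.3 CPM in myoblasts, and footprints at 31.5 to 40.2 CPM in hearts and 65.3 to 68.3 CPM in myoblasts (TE difference, -1.38; SE, 0.15). Mrps34 has 576 bases of exon in common with Mapk8ip3 on the other strand.

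By part of the ribosome, 27 of 30 large-subunit members (Mrps18a is counted here, since its protein sits in the large subunit) had higher mRNA in heart and 0 lower, with a median of 1.33, and 14 of 17 small-subunit members were higher and 2 lower, with a median of 0.99. TE was lower for 24 of the 30 (median, -0.94) and 10 of the 17 (median, -0.62). Of 33 members listed with a bacterial counterpart 28 were higher and 2 lower in mRNA, and of the remaining 14, 13 were higher and 0 lower. Not all of these 14 are found only in mitochondria, since Mrps18a (of the S18 family) and Mrpl58 have bacterial relatives. A list was drawn up for the decoding centre, the peptidyl transferase centre, the exit tunnel and the factor-binding stalk. It also holds Mrpl58, whose protein is not at these sites. All 10 measured members of the list were higher in mRNA (log2 fold changes from 0.69 for Mrps5 to 1.99 for Mrpl4), and 9 of them were lower in TE. Most members of both subunits were called in the same directions. With library totals, the directions of Mrps5 mRNA and of Mrpl3 TE were reversed. Within the list, the member not called lower in TE was Mrpl3, the mitochondrial member of the protein family of RPL3 and RPL3L. Its mRNA was at 147, 161, 148 and 151 CPM in hearts and 55.7, 62.2 and 57.7 CPM in myoblasts (log2 fold change, 1.37; SE, 0.10), its footprints were at 134 to 163 CPM and 62.2 to 64.5 CPM, and its TE difference was -0.14 (SE, 0.13).

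Other genes of mitochondrial translation and the 2 groups most like the members gave the following counts between WT heart and control C2C12 cells. Beside all of them, 39.7% of all transcripts were called higher and 41% lower in mRNA, and 25.2% were called lower in TE. Genes without a transcript in the table are left out, so that the lists are measured only in part. All 3 mitochondrial ribosomal proteins with other names in the table (Chchd1, Aurkaip1 and Gadd45gip1) were higher in mRNA and lower in TE (medians, 1.32 and -0.86), as were 8 of 8 factors of ribosome assembly and rRNA modification in mRNA and 5 of them in TE (medians, 1.36 and -0.69). All 11 mitochondrial translation factors were higher in mRNA (median, 1.76), while 2 were higher and 4 lower in TE (median, -0.14). Of 13 genes listed as mitochondrial aminoacyl-tRNA synthetases 11 were higher and 1 (Gars, -1.07) lower in mRNA (median, 0.93) and 3 lower in TE. The list also holds Gatb, which is not a synthetase. Of the list of regulators of mitochondrial biogenesis only 4 were measured, those whose motifs were searched above. Nrf1 (-1.59), Gabpa (-0.72), Yy1 (-0.57) and Myc (-4.12) were all lower in mRNA (median, -1.15). Ppargc1a, Ppargc1b, Esrra, Tfam, Tfb2m, Polrmt and Gabpb1 of the same list had no transcript in the table, so that nothing is known of them here.

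Nuclear genes of the respiratory chain, the machine that the mitochondrial ribosome serves, were higher in mRNA in 27 of 27 cases with a median of 3.62, and lower in TE in 25 (median, -1.17). Genes of the cytosolic ribosome went another way in mRNA, with 5 of 42 higher and 25 lower (median, -0.36), and the same way in TE, with 3 higher and 39 lower (median, -1.37). The median mRNA difference of the members thus lay between those of these groups. No test of the groups against each other was made.

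With loss of RPL3L, no member passed the test in mRNA. In RNA-seq of KO against WT hearts 0 of 47 members passed (edgeR), 0 had an unadjusted p under 0.05 and 0 passed by DESeq2, and of all transcripts 0.013% passed. The members' log2 fold changes ran from -0.11 to 0.37 with a median of 0.02 (0.004 for all transcripts). On simulated counts this model recovered 1.01% of transcripts changed by a log2 value of 0.5. Changes of this size would thus rarely pass, and the count of 0 does not show that mRNA was unchanged. Those with the smallest p-values were Mrps2, with 18.2 to 23.4 CPM in KO and 10.4 to 20.9 CPM in WT hearts, and Mrpl16, with 87.2 to 113 CPM and 83.1 to 92.7 CPM, and both pairs of groups overlapped. Summed over the members, mRNA was at 4103, 4491, 3480 and 4320 CPM in WT hearts and at 3929, 4931, 3912 and 3971 CPM in KO hearts.

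In some hearts most members deviated from their group in the same direction. In KO heart 2 by RNA-seq, 47 of 47 members lay above the mean of their group, with a median deviation of 0.22 on the log2 scale, against 48.4% of all transcripts and a median of -0.01. In WT heart 3 by RNA-seq 6 of 47 members did, with a median of -0.23, against 53.6% and 0.03. By Ribo-seq, the library numbered KO heart 2 had 8 of 47 members above the mean (median, -0.09; 49.9% of all transcripts) and KO heart 3 had 39 of 47 (0.08; 52.5%), whereas KO heart 3 had 6 of 47 by RNA-seq. KO heart 2 was also the heart with the lowest sums for fat (0.346 CPM of 3 markers), fibroblast (784 CPM of 6) and endothelial markers (136 CPM of 3) by RNA-seq. The other 3 KO hearts reached from 13.1 to 230 CPM, from 997 to 1537 CPM and from 212 to 232 CPM. The cardiomyocyte sum of KO heart 2 was the highest of the KO hearts (46389 CPM, against 40737 to 43848 CPM). WT heart 3 had the lowest fat (12.4 CPM) and cardiomyocyte sums (41675 CPM) of the WT hearts. Its endothelial sum was their highest (221 CPM), and its fibroblast sum was 1038 CPM. The part of these cells in the members' sum was not tested. Footprints summed to 4012, 3872, 4181 and 4138 CPM in WT hearts and to 3783, 3909, 4425 and 4525 CPM in KO hearts. In C2C12 cells the sums varied less, with group means of 2872 ± 53.4 (control), 2846 ± 48.0 (RPL3 OE) and 2820 ± 20.6 CPM (RPL3L OE; SD, n = 3) of mRNA and 3812 ± 58.9, 3828 ± 31.7 and 3889 ± 35.9 CPM of footprints.

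**Figure D3:**
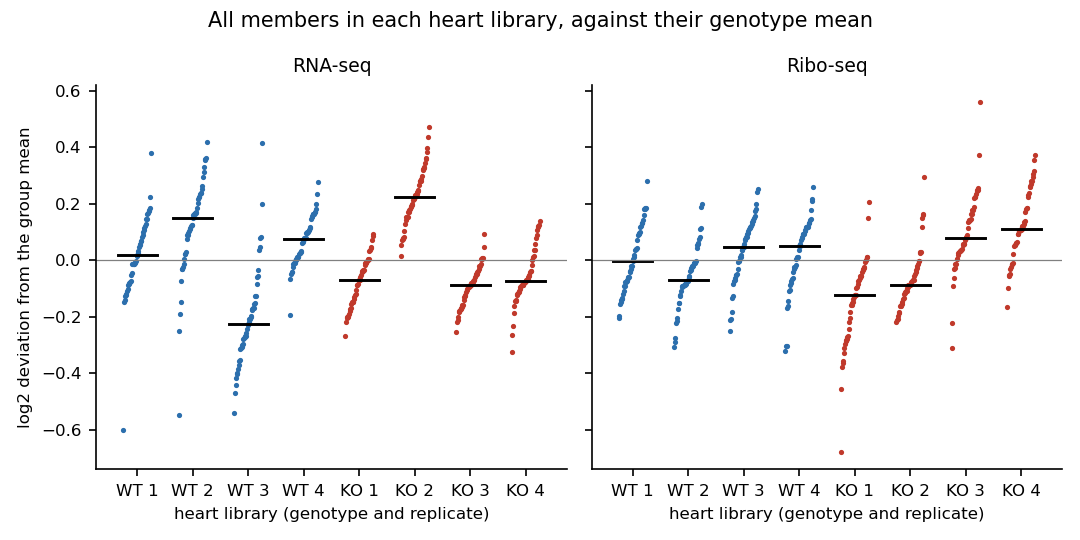
Deviation of each of the 47 members from its group mean in every heart library, on the log2 scale of normalised CPM, in RNA-seq and Ribo-seq, with a point per member and a line at the median. In RNA-seq, KO heart 2 lies above 0 for all 47 members (median, 0.22) and WT heart 3 below 0 for most (median, -0.23).

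In Ribo-seq of hearts, 1 of 47 members passed, as higher, against 0.677% of all transcripts in either direction and 0.425% as higher, and 7 had an unadjusted p under 0.05, of which 5 were higher and 2 lower in KO hearts. The member was Mrps34, with 86.6, 82.8, 80.7 and 87.3 CPM of footprints in WT hearts and 110.3, 110.4, 119.0 and 119.6 CPM in KO hearts. All 4 KO hearts lay above all WT hearts. The fold change was 1.36 (log2, 0.44; SE, 0.09; adjusted p = 0.0317, edgeR), and the call was lost without any single heart (adjusted p from 0.0506 to 0.118), with no filter (0.0552), with 1 transcript per gene (0.0600) and with the replicate block (0.0578). Its mRNA, at 98.2, 110.6, 87.3 and 100.1 CPM in WT and 85.2, 115.6, 90.1 and 90.1 CPM in KO hearts, overlapped between genotypes.

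Other members of the Ribo-seq comparison did not pass. Mrpl12 had 149.9 to 169 CPM of footprints in WT and 182 to 208 CPM in KO hearts (log2 fold change, 0.27; adjusted p = 0.130, edgeR). Mrpl4, which lines the exit tunnel, had 148 to 155 CPM and 168 to 203 CPM (0.28; adjusted p = 0.120, edgeR), and neither pair of ranges overlapped. Mrpl33 had 122 to 136 CPM in WT and 76.7 to 123 CPM in KO hearts (-0.35), and Mrps18c, of the S18 family, 57.4 to 69.9 CPM and 41.4 to 61.6 CPM (-0.33). The median over the members was 0.02, against 0.01 over all transcripts.

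For TE in hearts 0 of 47 members passed by edgeR and 0 by DESeq2, 2 had an unadjusted p under 0.05, and of all transcripts 0% passed. The 2 were Mrps34 (log2 difference, 0.50; SE, 0.15; adjusted p = 0.504, edgeR) and Mrps18c (-0.38; adjusted p = 0.769, edgeR). The median was -0.003, against 0.006 for all transcripts. Mrpl3 had 104 to 137 CPM of mRNA in KO and 117 to 128 CPM in WT hearts, and 101 to 129 CPM and 118 to 143 CPM of footprints, and passed in none of these tests. Without KO hearts 2 and 3, 0 members passed in TE. On simulated counts the TE model of all hearts recovered 0% of transcripts changed by a log2 value of 0.5 and 28.4% at 1, so that smaller differences could hardly pass.

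**Figure D4:**
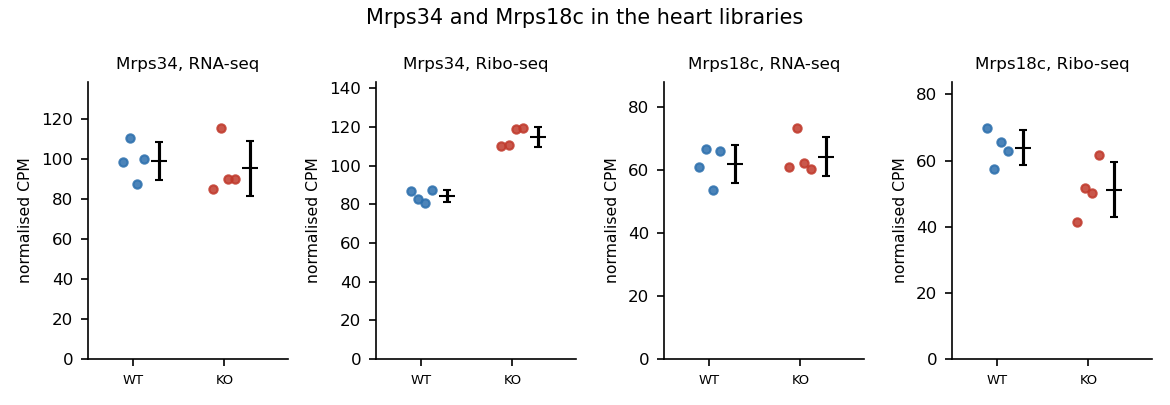
Normalised CPM of Mrps34 and Mrps18c in each WT and KO heart by RNA-seq and Ribo-seq, with a point per heart and bars for the mean and SD (n = 4). For Mrps34 the KO hearts (110.3 to 119.6 CPM of footprints) lie above the WT hearts (80.7 to 87.3 CPM), while its mRNA overlaps.

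In C2C12 cells with added RPL3L or RPL3, between 0 and 12 of the 47 members passed in a comparison, with the share of all transcripts that passed given beside each count, and most of the counts lay near or under that share. The comparisons of RPL3L OE and of RPL3 OE with control cells share the 3 control cultures. In RNA-seq of RPL3L OE against control 0 of 47 members passed (edgeR), 10 had an unadjusted p under 0.05 and 0 passed by DESeq2, while 9.26% of all transcripts passed. The smallest p-values were those of Mrps6, with 83.1 to 96.9 CPM in RPL3L OE and 94.5 to 103 CPM in control cells (log2 fold change, -0.13), and Mrps2, with 34.6 to 39.6 CPM and 29.7 to 33.1 CPM (0.18). The median over the members was -0.02, against -0.002 over all transcripts.

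In RPL3 OE cells 5 members were higher and 2 lower in mRNA than in control cells, and 16.1% of all transcripts passed (8.12% higher and 7.96% lower). Mrps6 was lower, with 82.0, 81.2 and 82.5 CPM against 103, 94.5 and 102 CPM (log2 fold change, -0.29; SE, 0.05; adjusted p = 1.18e-05, edgeR). Mrpl51, found only in mitochondria, was lower by -0.18. Higher were Mrpl36 (0.33; 20.2, 22.9 and 23.3 CPM against 18.2, 15.3 and 18.9 CPM), Mrpl24 (0.25), Mrps18c (0.22), Mrpl33 (0.19) and Mrpl52 (0.18), and in all 7 the groups did not overlap. Without RPL3 OE culture 1 the count fell from 7 to 3. Between RPL3L OE and RPL3 OE cells 5 members were higher and 7 lower in mRNA, and 27% of all transcripts passed (13% higher and 14.1% lower). These 12 became 6 without RPL3 OE culture 3 or RPL3L OE culture 3, 7 without RPL3 OE culture 1 and 7 by DESeq2. The largest differences were those of Mrps18c (-0.32), Mrpl44 (0.30), Mrps27 (0.28), Mrpl16 (-0.25) and Mrpl33 (-0.24), and Mrpl51 was higher by 0.20. Mrpl16 sits near the peptidyl transferase centre, and Mrps27 is a protein with pentatricopeptide repeats. Exons of Mrps18c share 174 bases with Gm43511 and those of Mrpl33 share 177 with Gm43809, both on the same strand, and those of Mrps27 share 417 with 6430562O15Rik on the other strand.

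In Ribo-seq of RPL3L OE against control cells 2 members were higher and 2 lower, and 11.1% of all transcripts passed (5.38% higher and 5.69% lower). Mrps35, found only in mitochondria, had 81.1, 76.5 and 73.3 CPM of footprints in RPL3L OE and 55.3, 60.3 and 64.5 CPM in control cells (log2 fold change, 0.36; SE, 0.07; adjusted p = 0.000921, edgeR). Mrpl30 was higher (0.33; adjusted p = 0.00233, edgeR), and Mrps34 (-0.27) and Mrpl4 (-0.21) were lower. Mrps34 had 77.2, 82.4 and 68.8 CPM of footprints in RPL3L OE cells and 87.7, 91.9 and 94.9 CPM in control cells, and these groups did not overlap. The call was lost without control culture 3 (adjusted p = 0.0520, edgeR) or RPL3L OE culture 3 (adjusted p = 0.105, edgeR). Its footprints did not pass between RPL3L OE and RPL3 OE cells (log2 fold change, -0.15; adjusted p = 0.122, edgeR), where the ranges overlapped.

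In RPL3 OE cells 1 member was higher in footprints than in control cells, Mrpl52 (0.17), and 2 were lower, Mrpl28 (-0.21) and Mrps6 (-0.20), and 10.6% of all transcripts passed (4.7% higher and 5.9% lower). These 3 became 1 without control culture 1 or RPL3 OE culture 1. Between RPL3L OE and RPL3 OE cells 5 members were higher and 2 lower in footprints, and 18.9% of all transcripts passed (9.59% higher and 9.27% lower). Without RPL3L OE culture 3, 4 members passed. Mrps35 (0.34), Mrpl51 (0.29), Mrps27 (0.23), Mrpl45 (0.18) and Mrpl2 (0.18) were higher, and Mrpl4 (-0.24) and Mrpl9 (-0.19) were lower. The splits depend on the scaling in part: with library totals they were 5 higher and 1 lower for RPL3L OE against control, 4 and 1 for RPL3 OE against control and 5 and 1 between the added proteins in Ribo-seq, and 5 and 4 between them in RNA-seq.

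TE passed in 1 of 47 members between RPL3L OE and control cells, as higher, against 2.08% of all transcripts in either direction and 1.13% as higher. The member was Mrpl30 (chr1:37890477-37898535, GRCm38, strand +), which also had the lowest TE in heart. Its footprints were at 65.2, 54.6 and 68.6 CPM in control and 79.7, 80.3 and 78.4 CPM in RPL3L OE cells, above every control culture. Its mRNA overlapped, at 127.0, 127.4 and 133.4 CPM in control and 124.0, 129.3 and 122.4 CPM in RPL3L OE cells. The TE difference was 0.38 (SE, 0.09; adjusted p = 0.00986, edgeR), and the call was lost without control culture 2 (adjusted p = 0.108) or RPL3L OE culture 3 (adjusted p = 0.0645).

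For TE in RPL3 OE against control cells 0 members passed by edgeR and 0 by DESeq2, 3 had an unadjusted p under 0.05, and 0.052% of all transcripts passed. Mrpl33 (-0.23) and Mrpl30 (0.23) had the smallest p-values. Between RPL3L OE and RPL3 OE cells 0 members passed by edgeR and 0 by DESeq2, 3 had an unadjusted p under 0.05, and 0.305% of all transcripts passed, with the smallest p-values for Mrps18c (0.36) and Mrps34 (-0.25). Mrpl3 had 75.7 to 84.9 CPM of mRNA in control, 81.1 to 86.1 CPM in RPL3 OE and 77.2 to 83.5 CPM in RPL3L OE cells, with 74.2 to 76.6, 71.7 to 80.5 and 76.2 to 80.9 CPM of footprints, and all these ranges overlapped between groups.

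**Figure D5:**
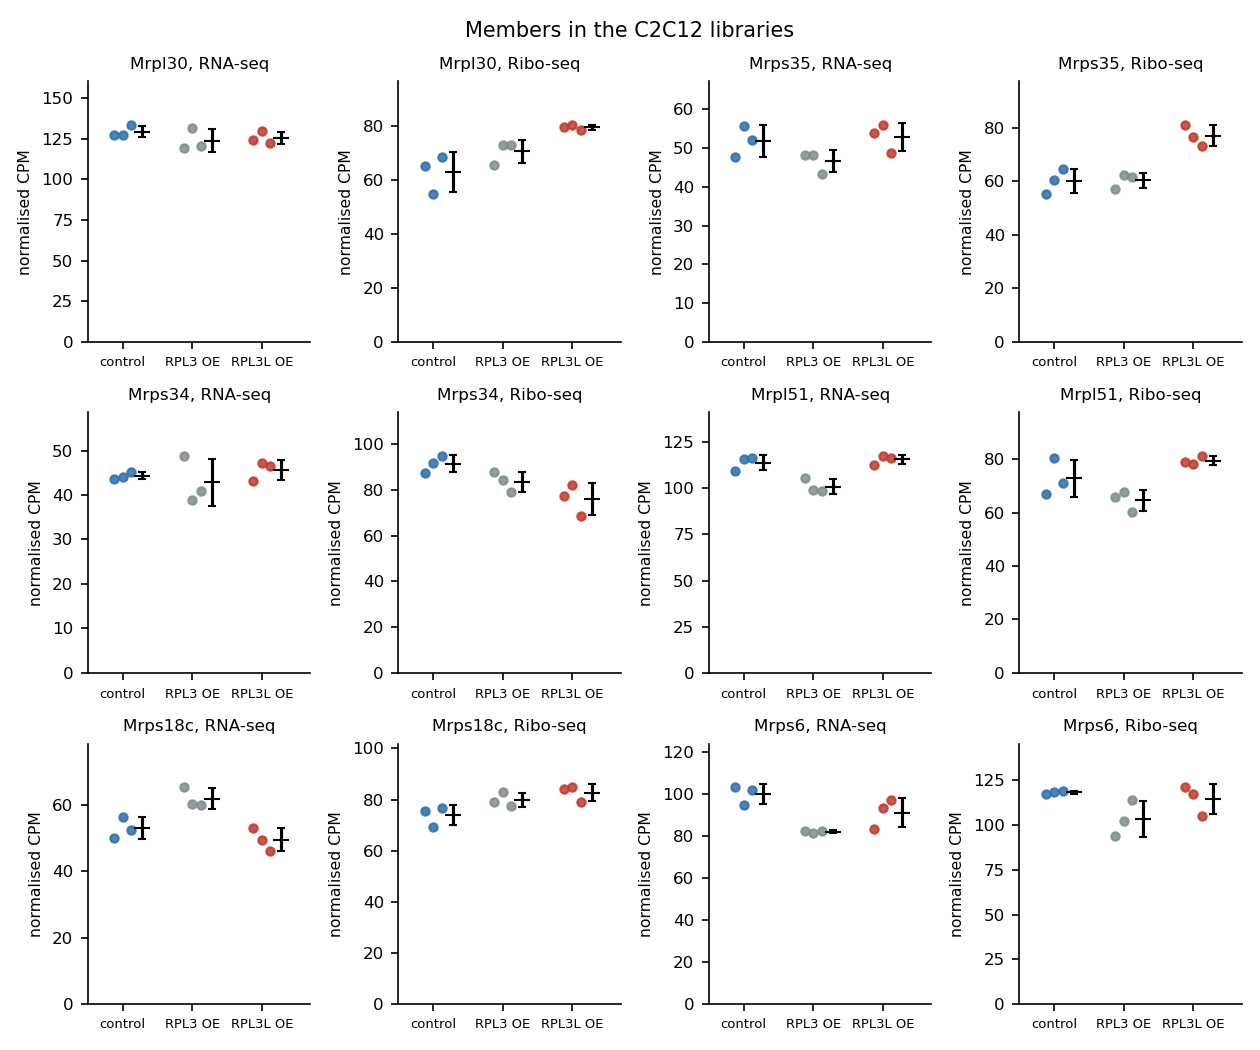
Normalised CPM of 6 members in each control, RPL3 OE and RPL3L OE culture by RNA-seq and Ribo-seq, with a point per culture and bars for the mean and SD (n = 3). Footprints of Mrpl30 lie at 78.4 to 80.3 CPM in RPL3L OE cells, above control cells (54.6 to 68.6 CPM), while its mRNA overlaps.

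Other genes of mitochondrial translation were counted in the same comparisons, by the same lists as above, with Gatb again among the synthetases. In hearts, where 0.013% of all transcripts passed in RNA-seq, 0.677% in Ribo-seq and 0% in TE, 0 of 3 mitochondrial ribosomal proteins with other names, 0 of 8 assembly factors, 0 of 11 translation factors and 0 of 13 aminoacyl-tRNA synthetases passed in RNA-seq, Ribo-seq or TE by edgeR (these lists were not run with DESeq2). An unadjusted p under 0.05 was reached by 0 of them in RNA-seq, by 1, 0, 5 and 2 in Ribo-seq and by 0, 0, 2 and 1 in TE. In RPL3L OE against control cells, where 9.26%, 11.1% and 2.08% of all transcripts passed, the counts for these lists were 1 lower, 0, 0 and 0 in RNA-seq, 0, 0, 1 higher with 1 lower, and 0 in Ribo-seq, and 0, 0, 1 higher and 0 in TE. Cytosolic ribosomal protein genes were lower in 9 of 42 in RNA-seq and 8 of 41 in Ribo-seq of the same comparison, with 0 higher in both.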

How the data were processed

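RNA-seq and Ribo-seq of heart (4 WT and 4 KO mice) and of C2C12 cells (3 cultures in each of 3 groups) were re-analysed from the deposited counts of reads on each transcript, which are not normalized. Ribo-seq reads had been trimmed (cutadapt) and filtered (FASTX-Toolkit), cleared of rRNA and mapped by STAR (builds GRCm38.p6 and mm10), deduplicated by UMI-tools and counted by featureCounts. Reads could map more than once, so that isoforms share them. The paper does not describe the read processing of RNA-seq separately, and the sources used here give neither program versions nor the strand setting. Footprints were from RNase I digestion of lysates with cycloheximide, and RNA-seq was of poly(A) RNA. For m6A-seq of hearts, the authors deposited a read count and a TPM value per peak.

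Of 2 identical lines per transcript 1 was used. GENCODE M21 gave names and positions of 23662 transcripts, all on the plus strand, and 215 had no match. Transcripts averaging 10 or more counts in every assay entered edgeR 4.0.16 (R 4.3.3), with TMM scaling within an assay and its quasi-likelihood test. P-values were two-sided and adjusted over all transcripts (Benjamini-Hochberg; threshold, 0.05), and TE was tested as the group-by-assay interaction. WT heart and control C2C12 libraries were fitted together for their comparison, and all C2C12 groups in 1 model. Members and lists were chosen with earlier results of these data known. Members were named by size and p in each comparison and by the ends of the order of levels. Replicates of C2C12 groups are separate samples by label, and p-values measure the spread between these samples. Models were tested on simulated counts. At a log2 change of 0.5, 1.01% of changed transcripts were recovered in heart RNA-seq, 5.15% in heart Ribo-seq and 0% in heart TE. At a log2 change of 1 these shares were 61.1%, 80% and 28.4%. For RPL3L OE against control C2C12 cells, 71.9%, 61.8% and 42.5% were recovered at 0.5. Alternatives were no filter, a higher minimum (mean of 50), scaling by library totals, DESeq2 1.42.0, 1 transcript per gene, the replicate block, only the groups compared and each replicate left out. Levels, motifs and figures were made in Python 3.11.15 with pandas 2.3.3, NumPy 2.4.6 and matplotlib 3.10.9. The number of counts limits every value, and tRNA-seq is not used here.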

Additional observations from a re-analysis of the deposited data

Results flagged for a closer look

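Of 28 groups of 4 hearts whose values were tested for a library that stands apart, 3 had one, where chance gives about 1 in 20. All 3 were RNA-seq of KO hearts, and the high library was KO heart 2 in each. The members' summed mRNA was 4931 CPM in that heart, while the other 3 KO hearts had 3912, 3929 and 3971 CPM. For Mrps34 it was 115.6 CPM, against 85.2 to 90.1 CPM, and for Mrps18c it was 73.4 CPM, against 60.1 to 62.1 CPM. The 3 values share the library, and Mrps34 and Mrps18c are part of the sum. They are thus not separate cases, and 3 of 28 cannot be set against 1 in 20.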

How the results depend on the processing

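The counts of members past the threshold moved by more than 1.5 times only in some comparisons. In Ribo-seq of hearts 1 member (Mrps34) passed, and 0 passed with no filter, with 1 transcript per gene, with the replicate block and without any single heart (0 to 0). In C2C12 cells without a single culture, RNA-seq gave 0 to 1 for RPL3L OE against control (1 without control 2 or RPL3L OE 3), 3 to 7 for RPL3 OE against control (3 without RPL3 OE 1) and 6 to 12 between them (7 without RPL3 OE 1, 6 without RPL3 OE 3 or RPL3L OE 3). Ribo-seq gave 3 to 4, 1 to 4 (1 without control 1 or RPL3 OE 1) and 4 to 7 (4 without RPL3L OE 3). TE gave 0 to 2 for RPL3L OE against control (0 without control 2 or RPL3L OE 3, 2 without control 3), 0 to 0 for RPL3 OE and 0 to 1 between them (1 without control 2). DESeq2 gave 7 members in RNA-seq and 3 in Ribo-seq between RPL3L OE and RPL3 OE, and 0 in Ribo-seq of RPL3 OE against control. Library totals gave 5 in Ribo-seq of RPL3 OE against control and 3 in TE of RPL3L OE against control.

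Without single libraries, hearts gave 0 to 0 in RNA-seq and TE, and WT heart against control C2C12 cells gave 42 to 43 in mRNA and 33 to 37 in TE. Direction was reversed for Mrps5 mRNA (-0.075) and Mrpl3 TE (0.23) with library totals and for Mrps6 mRNA in KO hearts and RPL3 OE cells (0.051), the last an alternative chosen after seeing the data, as was leaving out KO hearts 2 and 3. The share of all transcripts that passed was not counted in the alternatives. Of the alternatives, 184 counts of members were within 1.5 times and 31 were not. The causes were not tested, other than that fewer libraries were fitted.

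With the replicate block, TE in C2C12 cells had 3 members for RPL3L OE against control and 1 between RPL3L OE and RPL3 OE, and the adjusted p of Mrps34 in Ribo-seq of hearts was 0.0578 (edgeR). The numbers do not pair groups by label. RNA-seq and Ribo-seq deviations under the same number correlated at 0.410 to 0.526 in WT hearts and at -0.062 to 0.124 in C2C12 cells. In KO hearts 1 and 4 they correlated at 0.771 and 0.606, and in KO hearts 2 and 3 at -0.674 and -0.771. The best match within the group was the library of the same number in all hearts but KO hearts 2 and 3. No block could be fitted for mRNA between heart and C2C12 cells, whose numbers mark separate experiments. Without length, the median TE of members in WT heart was -0.45, against -0.22.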

Other observations

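The m6A-seq table of hearts (3 per genotype) held 3181 peaks, of which 6 were in members, 1 each in Mrps9, Mrps27, Mrpl11, Mrps5, Mrpl51 and Mrps35. In 0 of the 6 did the peak's TPM not overlap between KO and WT hearts, against 15.3% of all peaks. Mrpl51 had 142, 232 and 229 TPM in WT and 174, 173 and 201 TPM in KO hearts, which overlapped.

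Disome-seq, which sequences fragments protected by a pair of collided ribosomes, gave 39016 to 175747 counts per heart. Members took from 3138 to 4120 CPM of them in WT and from 3272 to 3537 CPM in KO hearts, so that the genotypes overlapped, against 3793 to 4369 CPM in Ribo-seq of the 8 hearts. Over all hearts Mrps17 had 130 disome counts, Mrpl33 had 123 and Mrps31 had 122, and single members were not compared between the genotypes.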
